A study of Mus musculus with 48 samples.

Results

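At circadian time 21 (CT21), late in the subjective night, colon of 4 *Bmal1* IEC-/- mice was compared with colon of 4 control mice, 8 of the 48 mice of the series. The mice were taken by their genotype and time labels, and all genes were used. Every one of these mice is homozygous for the floxed *Bmal1* allele, controls included. The *Bmal1* IEC-/- mice (*Bmal1* fl/fl with Villin CRE/wt) also carry a Cre driven by the Villin promoter, which is active in intestinal epithelium, so the other cells of the colon wall keep *Bmal1*. Their controls (*Bmal1* fl/fl with Villin wt/wt, called *Bmal1* flox/flox) are littermates without Cre. All were adult males on a C57BL/6J background, kept singly with a running wheel and free access to chow, and were killed on the second day of darkness. The labels do not tie a *Bmal1* IEC-/- mouse to a control littermate. Whole colon tissue was sequenced, so a lower level of a transcript can come from fewer cells of a type or from less RNA per cell, and these cannot be told apart.

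BMAL1, listed here under its gene symbol *Arntl*, pairs with CLOCK or NPAS2 and switches on genes through E-boxes, among them the period genes, the cryptochromes and the REV-ERB genes *Nr1d1* and *Nr1d2*. PER and CRY proteins then block BMAL1, while REV-ERBs repress and ROR proteins activate *Arntl* itself through ROR response elements (RREs). A further layer acts through D-boxes, which DBP, TEF and HLF activate and NFIL3 occupies as a repressor. In the colon, surface epithelium absorbs salt and water, goblet cells secrete mucus, and tight junctions seal the paracellular path.

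The 3 promoters below are those of *Arntl*, *Cry1* and *Nfil3*. These are among the 5 genes whose genotype difference at CT21 departed from the mean difference at the other times. Each window, 250 bases before to 50 after a RefSeq start site on GRCm38.p6, holds a clock motif, given in capitals. *Arntl* holds an RRE starting 30 bases after the second of its 2 listed start sites, *Cry1* an E-box starting 60 bases before its start, and *Nfil3* an RRE, read on the opposite strand, starting 12 bases before its start. The window at the first start site of *Arntl* held no clock motif. Of the rest of the 5 genes, *Ypel2* had a window without a clock motif and *Cldn8* had no window.
*Arntl*, chr7:113207261-113207560, plus strand: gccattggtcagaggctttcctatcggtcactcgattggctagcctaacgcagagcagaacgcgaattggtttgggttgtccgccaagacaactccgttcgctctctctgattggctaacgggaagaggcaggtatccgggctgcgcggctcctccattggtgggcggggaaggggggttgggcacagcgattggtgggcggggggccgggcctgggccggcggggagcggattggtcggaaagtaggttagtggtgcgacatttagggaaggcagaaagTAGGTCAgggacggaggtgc
*Cry1*, chr10:85185005-85185304, minus strand: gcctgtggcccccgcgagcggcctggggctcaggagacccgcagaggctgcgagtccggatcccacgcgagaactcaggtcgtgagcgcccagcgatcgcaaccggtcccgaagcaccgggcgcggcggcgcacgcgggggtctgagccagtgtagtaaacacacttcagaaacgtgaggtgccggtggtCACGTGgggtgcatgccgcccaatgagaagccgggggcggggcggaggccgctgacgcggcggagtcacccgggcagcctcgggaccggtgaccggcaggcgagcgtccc
*Nfil3*, chr13:52980990-52981289, minus strand: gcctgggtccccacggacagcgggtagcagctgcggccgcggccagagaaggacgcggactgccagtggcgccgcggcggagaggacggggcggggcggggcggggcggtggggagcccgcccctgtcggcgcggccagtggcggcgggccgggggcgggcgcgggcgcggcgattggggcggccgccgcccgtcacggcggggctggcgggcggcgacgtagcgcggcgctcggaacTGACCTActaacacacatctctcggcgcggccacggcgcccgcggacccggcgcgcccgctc
These motifs were searched on both strands as CACGTG for the E-box, TTATGNAA for the D-box and TAGGTCA for the RRE, and none of them is contained in another. Of the 15069 symbols tested, 11111 had a window, of which 11.3% held an E-box, 2.56% a D-box and 2.32% an RRE. An E-box was found in 1 of the 9 windows of genes called higher at CT21 (*Cry1*) and in 1 of the 14 of genes called lower (*B3galt2*). A D-box was found in *Nox1* and *Ces1g*, and the only RRE among them was that of *Arntl*. A match describes these letters in this window and is not a binding site.

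Between 3790439 and 4408757 reads were counted on genes in the control mice at CT21 and between 3144997 and 4133538 in the *Bmal1* IEC-/- mice. Replicates differed by more than counting error in each of 12 pairs (chi-square per gene of 3.194 to 6.036). Correlations of log counts were 0.9659 to 0.9748 within genotypes and 0.9633 to 0.9747 between them. Epithelial markers were high in all 8 mice, with summed normalised read counts (counts divided by DESeq2's size factors) of 40110 to 43520 in control and 42530 to 46470 in *Bmal1* IEC-/- mice. Of 14 pancreas markers 10 were at 0 throughout. Adipose markers differed most among mice, at 287 to 3975 in control and 224 to 1079 in *Bmal1* IEC-/- mice.

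Few transcripts differed between the genotypes at CT21. With edgeR's quasi-likelihood test over 15071 genes, 56 genes had a Benjamini-Hochberg adjusted p under 0.05, of which 26 were higher (0.173% of genes tested) and 30 lower (0.199%) in *Bmal1* IEC-/- mice. Adding a fold change over 1.5, 39 genes were called, 19 higher (0.126%) and 20 lower (0.133%). Without adjustment, 1242 genes (8.241%) had p under 0.05. Normalised read counts of the genotypes did not overlap for 36 of the 39 called genes, against 682 of all genes tested (4.53%). The median log2 fold change of all genes tested was 0.000923 and the median standard error 0.162. The plot of all genes shows the called genes spread from low to high expression, with the largest fitted changes at low counts.

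**Figure D1:**
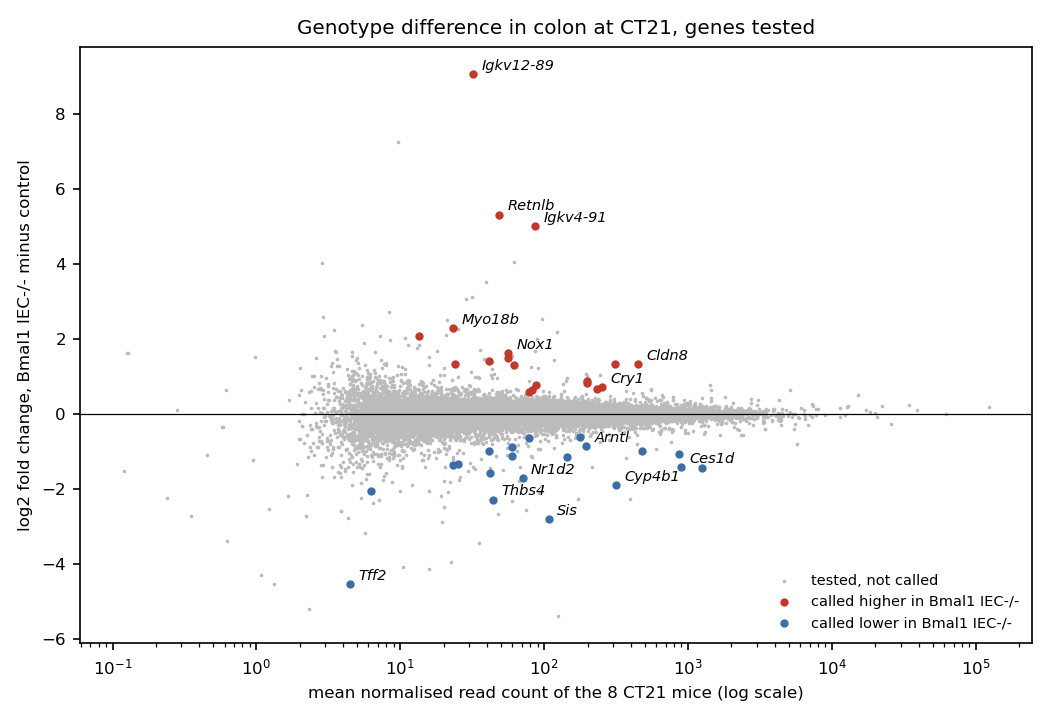
Log2 fold change at CT21 (Bmal1 IEC-/- minus control) against the mean normalised read count of the 8 mice on a log axis, 1 point per gene tested. The 19 genes called higher are red and the 20 called lower blue, and fitted changes of genes at or near 0 in a genotype, such as Igkv12-89 and Tff2, depend on the prior count.

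The deleted gene itself was lower in every *Bmal1* IEC-/- mouse. *Arntl* (ENSMUSG00000055116.8, GRCm38 chromosome 7, 113207465 to 113314126, plus strand) had normalised read counts of 236, 231, 259 and 283 in control and 141, 153, 134 and 129 in *Bmal1* IEC-/- mice. The groups did not overlap, and the log2 fold change was -0.86 ± 0.15 (SE, n = 4 per genotype, edgeR adjusted p = 0.000518). The count sums all exons and all cells of the tissue, so it does not measure the deletion by itself. CT21 was the only one of the 6 times at which *Arntl* was called lower. At CT1, where the fit held 2 *Bmal1* IEC-/- mice, *Arntl* was also below control without passing (-0.56 ± 0.18, adjusted p = 0.0966). The drop was thus not shown to be particular to CT21. In the libraries labelled *Bmal1* IEC-/- it was higher than in control at CT9 (114 ± 31.1 against 26.4 ± 8.81, SD) and at CT13 (117 ± 13.1 against 30.2 ± 10.5), where control levels were at their lowest.

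**Figure D2:**
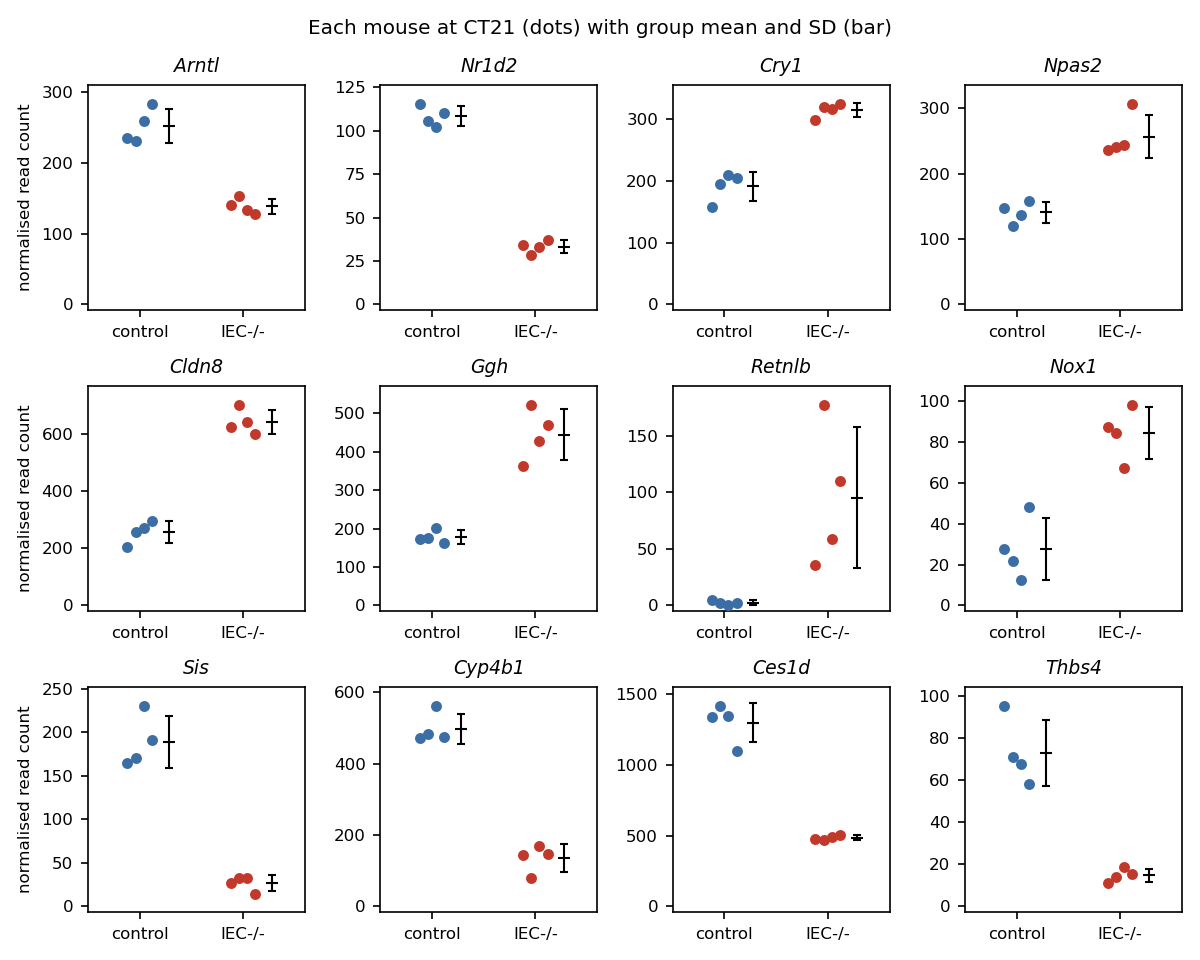
Normalised read counts of 12 genes called at CT21, 1 dot per mouse (control blue, Bmal1 IEC-/- red), with the group mean and SD as a black bar and a linear axis for each gene. The 4 Bmal1 IEC-/- mice lie wholly above or below the 4 control mice in each panel.

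Within the clock, partners and repressors of BMAL1 moved in both directions. Among 5 positive-arm genes, 1 was called higher and 1 lower, with a median log2 fold change of 0.01. *Npas2*, which can stand in for CLOCK, had 148, 120, 137 and 158 normalised reads in control and 236, 241, 243 and 306 in *Bmal1* IEC-/- mice. Every *Bmal1* IEC-/- value was above every control value, with a log2 fold change of 0.87 ± 0.14 (adjusted p = 0.000289). *Clock*, the usual partner of BMAL1, spanned 326 to 561 in control and 361 to 464 in *Bmal1* IEC-/- mice, with a log2 fold change of 0.01 and an unadjusted p of 0.975.

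Of 11 repressor genes, 1 was called higher and 1 lower, and the median log2 fold change was -0.26. *Cry1*, a cryptochrome that holds BMAL1 and CLOCK inactive, had normalised read counts of 157, 195, 209 and 204 in control and 297, 320, 316 and 323 in *Bmal1* IEC-/- mice. Its groups stood apart, at a log2 fold change of 0.72 ± 0.14 (adjusted p = 0.00344). *Nr1d2*, encoding REV-ERBβ, went the other way, from 115, 105, 102 and 110 in control to 34.4, 28.2, 32.8 and 37.1 in *Bmal1* IEC-/- mice. This was the largest change of any clock gene that passed the test, -1.71 ± 0.23 (adjusted p = 3.03e-06). *Per3* had values of -0.77 ± 0.20 without passing the test (adjusted p = 0.0745), although its 4 *Bmal1* IEC-/- mice (30.7 to 71.2) were below all controls (84.3 to 106). *Per1* (-0.92 ± 0.35, adjusted p = 0.383) ran from 86.3 to 185 in control and from 24.7 to 127 in *Bmal1* IEC-/- mice, so its groups overlapped. *Per2*, *Cry2*, *Ciart*, *Bhlhe40* and *Timeless* had adjusted p of 0.876 or more. *Nr1d1* (-0.99 ± 0.54, adjusted p = 0.666) was counted in few reads at this time (7.65 to 17.3 in control and 4.02 to 9.26 in *Bmal1* IEC-/- mice). So was *Bhlhe41* (-1.01 ± 0.49, adjusted p = 0.596), at 5.02 to 13.4 in control and 2.06 to 7.37 in *Bmal1* IEC-/- mice. An unadjusted p under 0.05 was found for 5 of the 11 repressor genes.

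Of 11 clock output genes tested, 1 passed. *Wee1*, a kinase that delays entry into mitosis, fell from 88.2, 102, 101 and 92.3 normalised reads in control to 57.8, 71.4, 63.7 and 52.5 in *Bmal1* IEC-/- mice (-0.64 ± 0.13, adjusted p = 0.00634) with no overlap. Without *Bmal1* IEC-/- mouse SV471 its adjusted p was 0.0618. Of the D-box factors none passed. *Dbp* had a log2 fold change of -0.05 (adjusted p = 0.989), *Tef* of -0.15 (adjusted p = 0.853) and *Nfil3* of -0.03 (adjusted p = 0.988). The output list as a whole had a median of -0.15, with 10 of 11 genes below 0. The plot of clock genes sets *Nr1d2* apart at one end and *Npas2* and *Cry1* at the other.

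**Figure D3:**
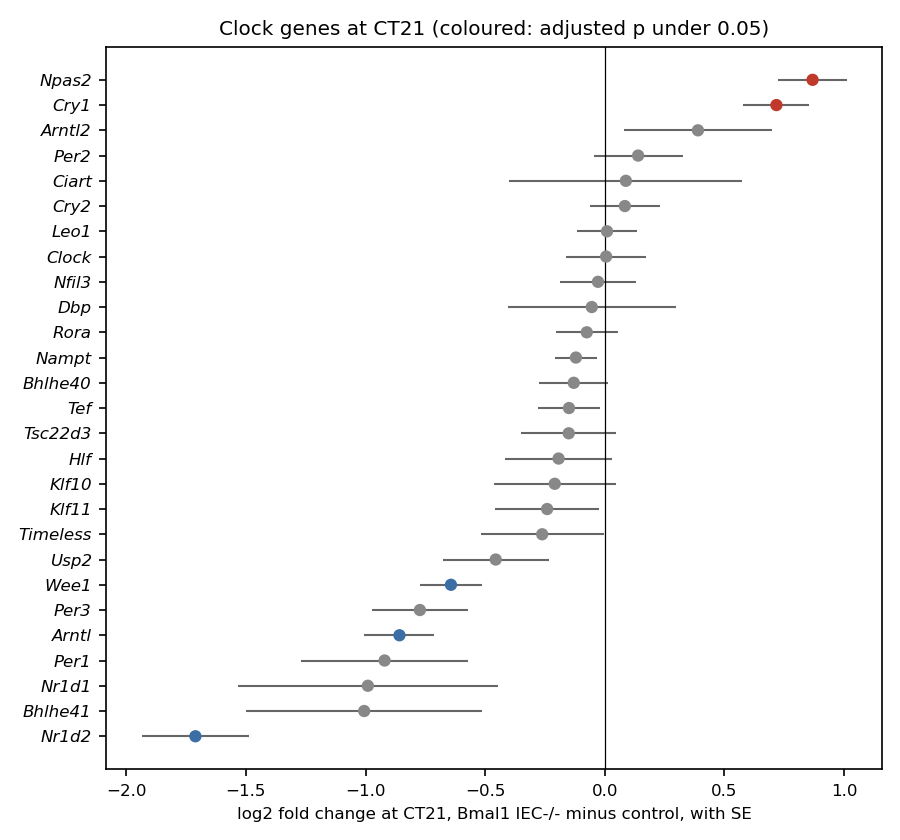
Log2 fold change at CT21 (Bmal1 IEC-/- minus control, horizontal axis) with its SE for the 27 clock genes tested, ordered by value. Red and blue points mark genes with an adjusted p under 0.05, higher (Npas2, Cry1) and lower (Wee1, Arntl, Nr1d2), and grey points the others.

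A single tight junction gene stood out among 16 tested. *Cldn8* (GRCm38 chromosome 16, 88560828 to 88563183), which encodes a sealing claudin of the distal gut, had normalised read counts of 204, 256, 270 and 295 in control and 624, 698, 641 and 599 in *Bmal1* IEC-/- mice. The lowest *Bmal1* IEC-/- mouse was above the highest control, at a log2 fold change of 1.32 ± 0.15 (adjusted p = 2.29e-07). No other claudin or junction gene passed the test, and the list median was -0.01.

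Goblet cell and antimicrobial genes gave a few large, low-count changes among many small ones. Of 20 goblet and mucus genes tested, 1 was called higher and 1 lower, the median was -0.02 and 10 lay on each side of 0. An unadjusted p under 0.05 was found for 8 of them, against 8.241% of all genes tested. *Retnlb*, which encodes the goblet cell protein RELMβ that acts on Gram-negative bacteria, had normalised read counts of 5.19, 1.76, 0 and 2.01 in control and 35.6, 177, 59.0 and 110 in *Bmal1* IEC-/- mice. All 4 *Bmal1* IEC-/- mice exceeded all controls, with 375 reads in all against 10 (depth-scaled ratio 42.3, 95% interval 22.7 to 88.9 for counting error only, edgeR adjusted p = 0.0298). The call was lost without any 1 control mouse and without *Bmal1* IEC-/- mouse SV445 or SV471 (adjusted p up to 0.126), and was made without either of the other two.

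*Tff2*, a trefoil peptide of mucus, moved the opposite way, at 6.92, 13.2, 6.70 and 8.03 normalised reads in control and 0, 1.01, 0 and 0 in *Bmal1* IEC-/- mice. This was 1 read against 38 (ratio 0.0297, 95% interval 0.000732 to 0.176, adjusted p = 0.0405), and the call was lost whichever CT21 mouse was left out (adjusted p = 0.0504 to 0.159). *Muc2*, the main gel-forming mucin of the colon, had a log2 fold change of 0.00 ± 0.18. *Zg16*, a lectin of the mucus layer, was at 2687 to 5322 in control and 5731 to 6674 in *Bmal1* IEC-/- mice without passing (0.63 ± 0.18, adjusted p = 0.156). *Ang4*, an antimicrobial angiogenin, ranged from 21.1 to 91.7 in control and from 54.3 to 414 in *Bmal1* IEC-/- mice (adjusted p = 0.352), so the groups overlapped. Among 13 antimicrobial genes tested *Retnlb* alone passed. The 6 gasdermins, pore-forming proteins of which *Gsdmc2*, *Gsdmc3* and *Gsdmc4* are closely related copies whose counts are uncertain, had a median of 0.63 and none passed.

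Of the lists examined, that of xenobiotic-metabolising phase I enzymes had the most genes that passed as lower. Of 26 enzymes, 4 passed the test, all lower, against 0.199% of all genes tested that passed as lower. An unadjusted p under 0.05 was found for 11, against 8.241% of all genes tested. This was not particular to the list, since 8 of 20 goblet and mucus genes and 11 of 30 salt and water genes also had one. Of the phase I enzymes 21 lay below 0, with a median of -0.22. By sign alone the list did not stand out, since 26 of 36 interferon-stimulated genes also lay below 0 (median -0.205). The summed normalised read count of the phase I list was 39420 to 41650 in control and 33480 to 35640 in *Bmal1* IEC-/- mice. *Ces1d* (GRCm38 chromosome 8, 93166068 to 93197838), a carboxylesterase that hydrolyses esters and triglycerides, had 1339, 1411, 1343 and 1094 normalised reads in control and 477, 471, 487 and 506 in *Bmal1* IEC-/- mice. The groups were far apart, at -1.42 ± 0.14 (adjusted p = 2.86e-09). *Ces1g*, a neighbouring carboxylesterase, was at 1177, 1152, 1167 and 1157 in control and 729, 438, 454 and 618 in *Bmal1* IEC-/- mice (-1.06 ± 0.14, adjusted p = 3.03e-06). Counts of these related copies may share reads and are uncertain.

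*Cyp4b1*, a cytochrome P450 that oxidises fatty acids and xenobiotics, had normalised read counts of 472, 481, 560 and 475 in control and 145, 78.4, 169 and 146 in *Bmal1* IEC-/- mice (-1.88 ± 0.22, adjusted p = 2.92e-07). *Aldh1a1*, which makes retinoic acid, passed the test below the fold threshold, from 2879 ± 168 in control to 1964 ± 251 in *Bmal1* IEC-/- mice (SD, n = 4). It did not pass without SV434, SV441, SV445 or SV470 (adjusted p up to 0.117). *Ces2c* had values of -0.39 ± 0.10 and did not pass (adjusted p = 0.0602).

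Among 26 conjugation and efflux genes, 1 was lower and 1 higher, with a median of -0.02. *Ugt1a1*, which glucuronidates bilirubin, averaged 213 ± 28.5 normalised reads in control and 140 ± 22.2 in *Bmal1* IEC-/- mice (-0.61 ± 0.11, adjusted p = 0.0022). Same-strand genes of the *Ugt1a* cluster cover 58.9% of its exon bases, so this count is uncertain. Its fold fell under the threshold without control SV434 or *Bmal1* IEC-/- mouse SV444 or SV445, at a log2 fold change of -0.51 at the least. *Abcg2*, an apical exporter of xenobiotics, rose from 544 ± 45.6 to 772 ± 29.2 (0.50 ± 0.10, adjusted p = 0.0051), below the fold threshold, and did not pass without control SV433 (adjusted p = 0.055).

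At the brush border, *Sis* fell most. *Sis* (GRCm38 chromosome 3, 72888557 to 72967863), the disaccharidase sucrase-isomaltase, had normalised read counts of 164, 170, 230 and 191 in control and 27.0, 33.2, 32.8 and 14.4 in *Bmal1* IEC-/- mice. The highest *Bmal1* IEC-/- mouse lay far below the lowest control, at -2.80 ± 0.34 (adjusted p = 4.47e-07). No other of the 18 brush border genes passed, with a list median of -0.09. *Ggt1*, a membrane peptidase, had a value below 0 with no overlap, at 83.2 to 143 in control against 30.7 to 68.4 in *Bmal1* IEC-/- mice (-1.14 ± 0.30, adjusted p = 0.0863).

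Of the transport genes, *Slc13a1*, a sodium-sulfate cotransporter, had normalised read counts of 216, 211, 143 and 221 in control and 97.1, 72.4, 82.4 and 105 in *Bmal1* IEC-/- mice (-1.15 ± 0.20, adjusted p = 0.000524). It was the only 1 of 22 ion and solute transporters to pass, and their median was 0.00. *Car4*, a membrane carbonic anhydrase that supplies ions for exchange, fell from 1525 ± 120 to 1063 ± 99.7 (-0.52 ± 0.10, adjusted p = 0.00424), the only pass among 30 salt and water genes (median -0.10). In that list *Slc26a3*, the chloride-bicarbonate exchanger of the colon, was at 713 to 813 in control and 352 to 771 in *Bmal1* IEC-/- mice (adjusted p = 0.237).

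*Pigr*, the receptor that carries IgA into the lumen, was among the most highly counted genes to pass. It had 12834, 12566, 10435 and 14259 normalised reads in control and 17229, 16870, 16930 and 19601 in *Bmal1* IEC-/- mice, with no overlap and a log2 fold change of 0.49 ± 0.08 (adjusted p = 0.000109). None of the other 14 genes of the IgA list passed, and the list median was 0.05. *Ccl28*, a chemokine that draws IgA plasma cells, had 261 to 331 normalised reads in control and 397 to 591 in *Bmal1* IEC-/- mice without passing (0.62 ± 0.16, adjusted p = 0.0665). *Igha*, the IgA heavy chain, was at 0.12 ± 0.29. In the MHC class II list *Ctss*, a protease that trims the invariant chain, passed as lower (-0.42 ± 0.09, adjusted p = 0.0209, and up to 0.173 without SV433, SV434, SV444, SV445 or SV471), and 10 of 10 genes lay below 0 with a median of -0.15.

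Immunoglobulin light chain segments were carried by single mice. *Igkv4-91* had 6.92, 1.76, 8.61 and 3.01 normalised reads in control and 6.14, 607, 29.0 and 25.7 in *Bmal1* IEC-/- mice. *Igkv12-89* was at 0 in all controls and at 0, 1.01, 256 and 0 in *Bmal1* IEC-/- mice. A single *Bmal1* IEC-/- mouse holds nearly all reads of each, and both genotypes overlapped. Without the mouse that carries it, neither was called (adjusted p = 0.672 for *Igkv4-91* and 0.886 for *Igkv12-89*). *Igkv4-91* also lost its call without control SV433 or SV434, and *Igkv12-89* without any 1 control.

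The remaining called genes belong to no single list. *Ggh* (GRCm38 chromosome 4, 20042052 to 20066750), a lysosomal enzyme that trims polyglutamated folate, had the smallest p of all genes. Its normalised read counts were 172, 177, 203 and 162 in control and 364, 521, 427 and 469 in *Bmal1* IEC-/- mice (1.32 ± 0.12, adjusted p = 7.82e-10). *Glipr2*, a Golgi-associated protein, rose from 143 ± 28.5 to 253 ± 22.6 (0.82 ± 0.12). *Nox1*, the superoxide-producing oxidase of colon epithelium, was at 27.7, 22.0, 12.4 and 48.2 in control and 87.2, 84.5, 67.4 and 97.8 in *Bmal1* IEC-/- mice (1.61 ± 0.32, adjusted p = 0.00567). Exons of *Cstf2* on the other strand cover 12.1% of *Nox1* exon bases, and its adjusted p was 0.0559 without control SV441.

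Lower-abundance genes that rose were *Myo18b*, an unconventional myosin (7.77 ± 1.73 to 38.6 ± 10.4), *Dab1*, an adaptor of reelin signalling (22.5 ± 6.00 to 60.0 ± 9.50), *Agbl2*, a tubulin carboxypeptidase (29.4 ± 5.54 to 82.6 ± 8.16), and *Pex5l*, a relative of the peroxisomal import receptor (28.1 to 41.3 in control, 73.0 to 102 in *Bmal1* IEC-/- mice). *Pappa2*, a protease of IGF-binding proteins, rose from 13.7 ± 5.28 to 34.7 ± 2.06, and of the fits that left out 1 mouse only that without control SV441 kept its call (adjusted p up to 0.21). *Pip4k2a*, a phosphoinositide kinase, *Boc*, a hedgehog co-receptor, *Gtf2f2*, a subunit of a general transcription factor, and *Zbtb40*, a zinc finger protein, were called at log2 fold changes of 0.59 to 0.78. Leaving out a mouse ended these calls too, that of *Pip4k2a* without SV441 or SV444 (adjusted p up to 0.0885), those of *Boc* and *Gtf2f2* without SV433, SV434, SV441, SV444 or SV471 (up to 0.262 and 0.19) and that of *Zbtb40* without these or SV445 (up to 0.227). The gene model *9030625G05Rik* completes the 19.

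*Thbs4* (GRCm38 chromosome 13, 92751590 to 92794818), a thrombospondin of the extracellular matrix, was the only pass among 20 fibroblast and matrix genes. Its normalised read counts were 95.1, 71.1, 67.9 and 58.2 in control and 11.1, 14.1, 18.7 and 15.4 in *Bmal1* IEC-/- mice (-2.28 ± 0.24, adjusted p = 1.77e-08). The other 19 members did not pass, and the list median was -0.11. *Smim24*, a small membrane protein, fell from 633 ± 58.8 to 318 ± 43.7 (-0.99 ± 0.12). *B3galt2*, a galactosyltransferase, fell from 62.2 ± 9.95 to 21.2 ± 9.37, *Iyd*, an iodotyrosine deiodinase, from 76.9 ± 4.42 to 42.0 ± 7.82, and *Agmo*, an ether lipid oxygenase, from 54.6 ± 4.10 to 27.9 ± 5.38. The gene model *2210407C18Rik* fell from 1835 ± 149 to 676 ± 143 (-1.44 ± 0.22). *Pla2g2f*, a secreted phospholipase, *Hes2*, a transcriptional repressor, *Myrfl*, a relative of a myelin regulatory factor, and the gene model *Gm1965* were also called lower. Calls ended for *Iyd* without SV470 or SV471 (adjusted p up to 0.0599), *Agmo* without SV445 (0.0634), *Gm1965* without SV444 (0.0636), *Hes2* without SV433, SV434, SV444, SV445 or SV471 (up to 0.0981), *Pla2g2f* without SV434, SV441, SV445, SV470 or SV471 (up to 0.115) and *Myrfl* without any 1 mouse but controls SV433 and SV476 (up to 0.233).

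Among genes that passed below the fold threshold, *Selenop*, a selenium carrier, *Dio1*, a selenium-dependent deiodinase, *Ephx2*, an epoxide hydrolase, *Acsl3*, an acyl-CoA synthetase, *Plet1*, *Cd24a* and *Gm5485* were lower, at log2 fold changes of -0.56 to -0.39. *Mtch2*, an outer mitochondrial membrane protein, rose from 1068 ± 31.7 to 1424 ± 118 (0.41 ± 0.09). *St3gal1*, a sialyltransferase, *Vwa8*, and the ribonucleases *Rnase4* and *Ang*, which share 13.4% and 18.2% of their exon bases with each other and are thus uncertain, also rose. Exons of *Ccdc152* on the other strand cover 15.4% of *Selenop*. *Cd24a* was the one of these whose genotypes overlapped. Of the 17 genes that passed below the fold threshold, *Pigr* and *Car4* passed in all 8 fits without 1 CT21 mouse and the other 15 did not. Among those lower, the pass was lost without SV433, SV434, SV444 or SV445 for *Selenop* (adjusted p up to 0.256), without SV433, SV434, SV444 or SV471 for *Dio1* (up to 0.195), and without any 1 mouse but SV470 and SV476 for *Ephx2* (up to 0.233), but SV445 and SV476 for *Acsl3* (0.249) and *Cd24a* (0.275) and but SV476 for *Gm5485* (0.155). *Plet1* lost it without SV434, SV441, SV445, SV470 or SV471 (up to 0.162). Among those higher, it was lost without SV434 or SV445 for *Mtch2* (up to 0.0676), SV433, SV441, SV444 or SV471 for *St3gal1* (0.239), SV441, SV445, SV471 or SV476 for *Vwa8* (0.152), SV445 or SV471 for *Rnase4* (0.0736) and SV441, SV471 or SV476 for *Ang* (0.173).

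Of 13 genes that the study names for these mice, a choice made on these samples, *Retnlb* and *Pigr* passed as higher and *Tff2* as lower. *Ffar2*, *Hc*, *Abcc2*, *Cxcr4*, *Vcam1*, *Muc3*, *Tff3*, *Fcgbp*, *Casp4* and *Pdk1* had adjusted p of 0.139 or more. The study gives *Retnlb* and *Tff2* as examples of differential expression between genotypes in samples taken over the circadian day. It reports *Ffar2*, *Hc*, *Abcc2*, *Cxcr4* and *Vcam1* for a lost rhythm. It reports the same for genes of goblet cell function, which its text does not name, and shows the others as circadian profiles. A test of levels at CT21 alone does not measure rhythm. *Ffar2* was higher in *Bmal1* IEC-/- mice at CT9 (1.16, edgeR adjusted p = 7.14e-07) and at CT13 (1.52, edgeR adjusted p = 3.32e-09). A further 14 tested genes were named earlier from all circadian times of this series, a choice that also used these CT21 mice. Their passes are thus not independent of that choice. Of them 7 passed, namely *Ggh*, *Glipr2*, *Mtch2*, *Cldn8*, *Sis*, *Thbs4* and *Ces1d*. The other 7 (*Ang4*, *Arg2*, *Metrnl*, *Esrp2*, *Uqcc1*, *Tns4* and *Ypel2*) had adjusted p of 0.159 or more. The difference of *Ypel2* changed sign between times (-0.39 at CT1, 0.93 at CT13).

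Of the 53 gene lists examined, 36 had no member that passed. They hold 534 distinct tested genes, of which 69 (12.9%, against 8.241% of all genes tested) had an unadjusted p under 0.05 and 6 (1.12%, against 0.544% of all) passed by DESeq2. Sterol synthesis, interferon-stimulated genes, chemokines and cytokines, the unfolded protein response, heat shock, Wnt and stem cell genes, enteroendocrine and tuft cell markers and ribosomal proteins were all without a pass. The 10 transcripts of the mitochondrial genome had values above 0 with a median of 0.19, and 22 of 23 nuclear respiratory chain genes lay above 0 with a median of 0.08. The summed respiratory chain count was 26060 to 27380 in control and 27570 to 29610 in *Bmal1* IEC-/- mice.

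Markers of several other cell types of the colon wall had mostly negative log2 fold changes, none of which passed. Smooth muscle markers lay below 0 in 12 of 13 cases (median -0.14, summed counts 23430 to 29340 in control and 21330 to 24730 in *Bmal1* IEC-/- mice), enteric nervous markers in 12 of 16 (median -0.19, 1071 to 1257 against 999 to 1056) and endothelial markers in 9 of 10 (median -0.18, 1121 to 1392 against 1018 to 1174). All 10 adipose markers lay below 0 with a median of -1.59, their summed counts overlapped, and none passed the test. Fibroblast and matrix genes, of which *Thbs4* passed, lay below 0 in 15 of 20 cases (median -0.11). Other lists leaned the other way without a pass. Macrophage and dendritic cell markers lay above 0 in 9 of 14 cases (median 0.13) and epithelial markers in 11 of 13 (median 0.10). The part of these markers in the genotype differences above was not tested.

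All but 4 of the genes called higher at CT21, and all but 1 of those called lower, were also called in the same direction at another time. In the main fit the 39 calls at CT21 were fewer than at any of the other 5 times. CT21 had 48 calls by DESeq2, 51 without SV470 and 49 without SV476. Calls at the other times were not counted in those fits, so this rank was not tested there. At CT1 there were 58 higher (0.385%) and 70 lower (0.464%), at CT5 31 (0.206%) and 17 (0.113%), at CT9 71 (0.471%) and 80 (0.531%), at CT13 188 (1.25%) and 155 (1.03%), and at CT17 36 (0.239%) and 64 (0.425%). *Cldn8*, *Cry1*, *Dab1*, *Ggh*, *Glipr2* and *Myo18b* were called higher, and *2210407C18Rik*, *Cyp4b1*, *Gm1965*, *Nr1d2*, *Sis* and *Thbs4* lower, at all 6 times. With CT17, the preceding time, CT21 shared 14 of its 19 higher calls (73.7% of those at CT21, 38.9% of those at CT17) and 16 of its 20 lower calls (80% and 25%). With CT1, the following time, it shared 6 (31.6% and 10.3%) and 8 (40% and 11.4%). The fit held only 2 *Bmal1* IEC-/- mice at CT1 against 4 at CT17, so these shares cannot be compared as an effect of time.

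The sign of the difference was the same at all 6 times for 14 of the 19 genes called higher and 18 of the 20 called lower. *Gtf2f2*, *Zbtb40* and the 2 *Igkv* segments were called higher at CT21 alone, and *Arntl* lower at CT21 alone. The log2 fold change of *Arntl* at CT1 was also below 0 (-0.56) without passing. A call made at one time and not at another is not in itself a difference between times, which was tested separately. Of the lower genes in the map of called genes, *Arntl* kept its sign at 3 of the 6 times and *Wee1* at 5.

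**Figure D4:**
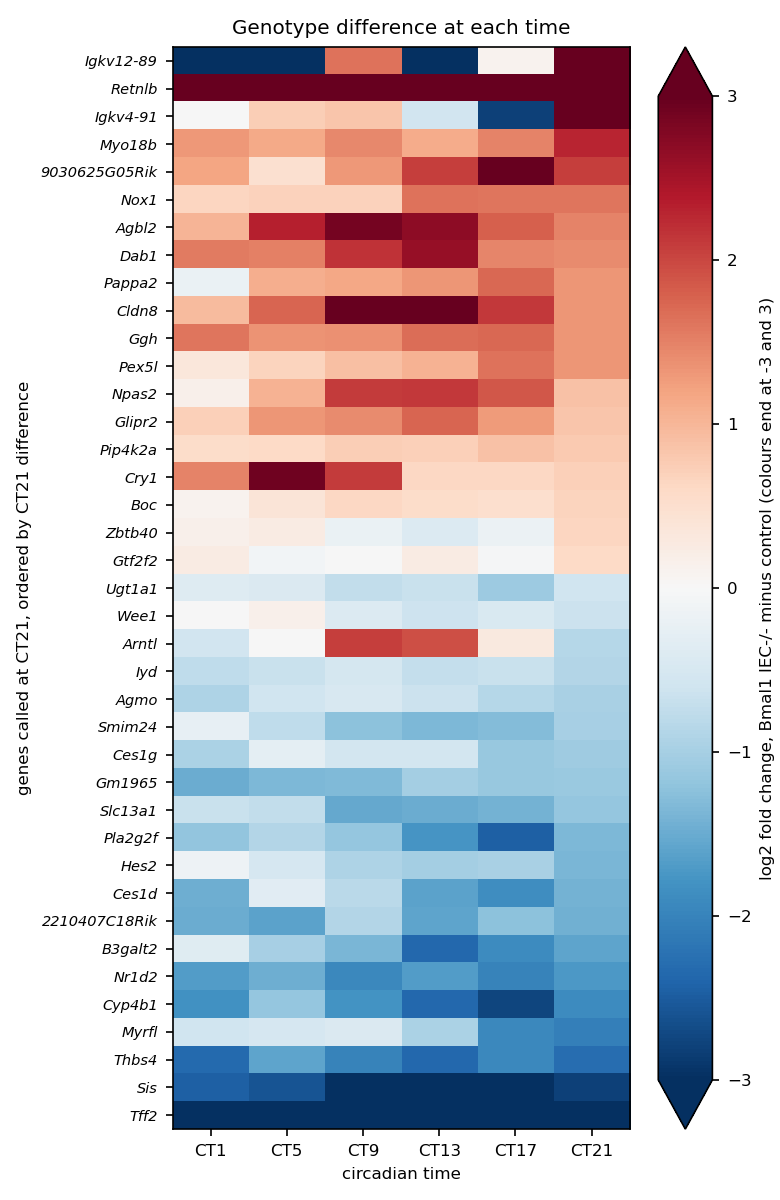
Log2 fold change (Bmal1 IEC-/- minus control) at each of the 6 circadian times for the 39 genes called at CT21, 1 row per gene ordered by the CT21 value, with red higher and blue lower in Bmal1 IEC-/- mice. Most rows keep their colour throughout, Arntl is red at CT9 and CT13 and faintly so at CT17, and the extreme colours of Igkv12-89 and Tff2 come from groups at or near 0 reads.

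When the CT21 difference was tested against the mean difference at the other 5 times, 5 genes passed (0.0332% of genes tested), and for all 5 the CT21 value was the lower. *Arntl* differed most, by -1.60 ± 0.17 (SE, log2 scale, adjusted p = 4.75e-08). *Nfil3*, whose protein represses through D-boxes, had mean normalised read counts of 97.9 ± 22.6 (SD) at CT21 in control against 96.0 ± 8.73 in *Bmal1* IEC-/- mice, but of 12.9 ± 4.86 against 92.8 ± 2.33 at CT9, and its CT21 difference was lower by 1.43 ± 0.18 (adjusted p = 4.25e-06). Its level in *Bmal1* IEC-/- mice ran only from 87.5 to 96.0 over the 6 times, while control means ran from 12.9 to 97.9.

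The same held for *Cldn8*, which was at 632 to 645 in *Bmal1* IEC-/- mice at every time and at 55.8 (CT9) to 328 (CT1) in control, so its genotype difference was 1.32 at CT21 against a mean of 2.33 at the other times (adjusted p of the difference = 0.00206). *Cry1* had a CT21 difference of 0.72 against a mean of 1.55 (adjusted p = 0.00989, and up to 0.0629 without control SV441 or SV476). The difference of *Cry1* was smaller still at CT13 (0.62) and CT17 (0.61), and that of *Cldn8* at CT1 (0.95). A small difference was thus not particular to CT21 for either gene. *Ypel2*, a member of the Yippee family, had a CT21 difference of -0.56 ± 0.16 (adjusted p = 0.159) against a mean of 0.32 (adjusted p of the difference = 0.0395, and up to 0.189 without SV433, SV434, SV444, SV445 or SV470), with 125 ± 18.9 normalised reads at CT21 in control against 85.3 ± 13.8 in *Bmal1* IEC-/- mice. In the plot of time courses the control means of *Arntl* and *Nfil3* come up to or over the *Bmal1* IEC-/- means at CT21.

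**Figure D5:**
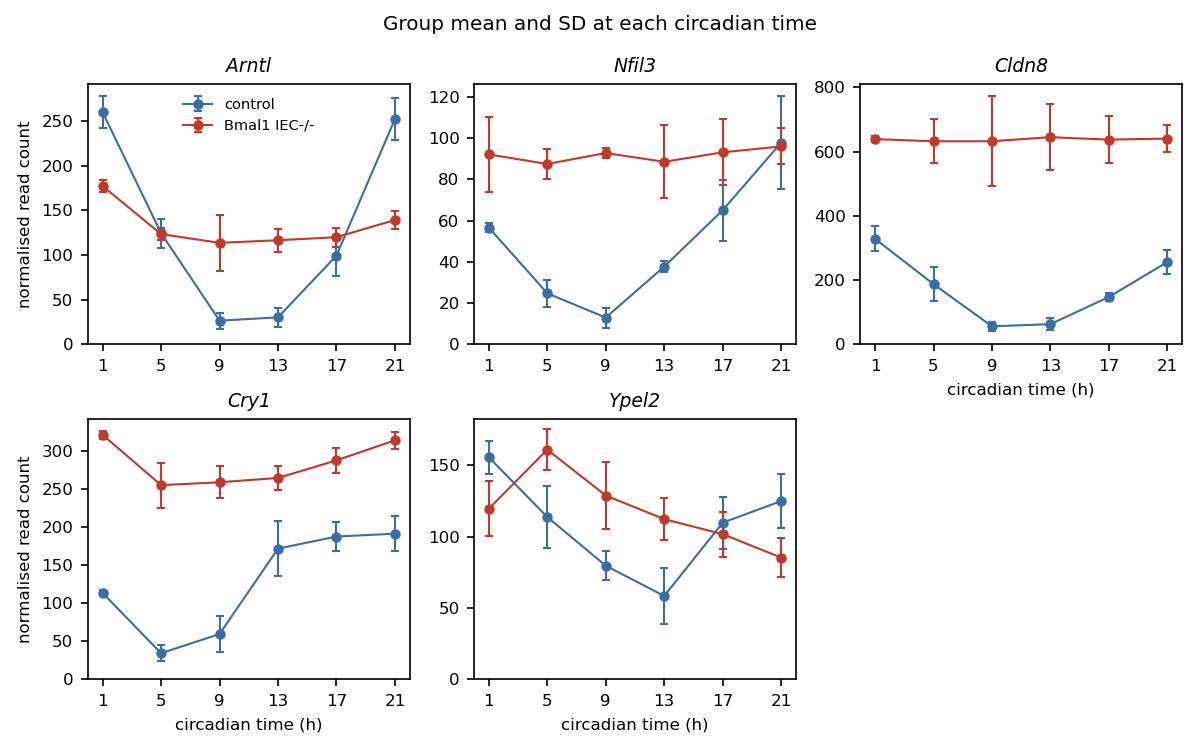
Mean normalised read count with SD of control (blue) and Bmal1 IEC-/- (red) mice at each circadian time in hours (n = 4, but 2 for Bmal1 IEC-/- at CT1). The 5 genes are those whose CT21 difference departed from the mean difference at the other times. Bmal1 IEC-/- means of Nfil3 and Cldn8 stay nearly level, at 87.5 to 96.0 and 632 to 645, while control means swing.

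Against CT9 alone, 12 h away, 20 genes had a different genotype effect at CT21 (0.133%). In 14 of them the CT21 value was the lower. Those with the smallest p were *Arntl* (-2.93 ± 0.24, adjusted p = 3.35e-11), *Nfil3* (-2.83 ± 0.27), *Cldn8* (-2.16 ± 0.24) and *Cry1* (-1.39 ± 0.21). *Npas2* was also among these 14, with a genotype difference of 0.87 at CT21 and 2.11 at CT9. In the other 6 the CT21 value was the higher. *Tef*, a D-box activator, was below control by 1.23 at CT9 and by 0.15 at CT21 on the log2 scale (difference 1.08 ± 0.18, adjusted p = 0.000535), and *Tns4*, a tensin of focal adhesions, was called lower at CT9 (1216 ± 116 in control against 580 ± 74.9 in *Bmal1* IEC-/- mice) and was at 665 ± 134 against 623 ± 96.5 at CT21 (difference 0.98 ± 0.16, adjusted p = 0.000369).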

How the data were processed

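RNA of whole colon was extracted and sequenced from paired reads of stranded mRNA libraries. Per the labels and the study's methods, the authors checked and trimmed reads (FastQC 0.11.5, Trimmomatic 0.39), aligned them to mm10 with STAR 2.7.5c and counted them on exons with featureCounts 1.4.6. The strand setting and annotation version are not given in the sources used here. The deposited values are the authors' raw read counts per gene, and 55141 of 55401 identifiers matched a symbol in the gene tables. Positions are from GENCODE vM21 (GRCm38, the same assembly as mm10).

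Counts were tested with edgeR 4.0.16 (filterByExpr, TMM normalization, quasi-likelihood F tests with p adjusted after Benjamini-Hochberg) in R 4.3.3, in a model of the 12 groups of genotype and time, with contrasts at CT21, of CT21 against the mean of the other 5 times and of CT21 against CT9. Genes with an adjusted p under 0.05 passed, and those also over a fold of 1.5 were called, the thresholds of the study. The fit held 46 mice. It left out *Bmal1* IEC-/- mice SV384 and SV385 at CT1, which earlier processing of these data found outside the study's set, and which enter no CT21 group. For normalised read counts, raw counts were scaled by size factors from DESeq2 1.42.0 computed on these 46 mice. The SE is the log2 fold change divided by the root of F. A count of 0 allows up to 3 reads, and intervals cover counting error only. The mice of a group are separate animals. Of the 15073 genes in the fit, 2 are not reported here. The counts and shares are of the other genes, and p was adjusted over all. The steps were tested on simulated data. Plots used Python 3.11.15 and matplotlib 3.10.9.

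Named genes were clock genes, the 10 called genes with the smallest p and the 5 with the largest non-overlapping change in each direction, up to 4 members of each list by p, the 5 genes with the smallest p in each direction of the tests between times, and genes named by the study or by earlier results. The other genes that passed were added. The lists and rules were chosen with earlier results of these data known. Alternatives were other normalizations, filters, thresholds, sets of mice, DESeq2 and leaving out each CT21 mouse.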

Additional observations from a re-analysis of the deposited data

Results flagged for a closer look

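In 155 groups of 4 mice (78 genes that passed at CT21 or belong to the clock, by genotype), 15 held a mouse whose gap to the next exceeded Dixon's critical value, where chance flags about 1 in 20 groups. Among controls these normalised read counts were 7.03 for *9030625G05Rik* (SV476), 476 for *Abcg2* (SV433), 560 for *Cyp4b1* (SV441), 25.1 for *Hlf* (SV476), 83.4 for *Iyd* (SV434), 85.3 for *Klf11* (SV476) and 143 for *Slc13a1* (SV441). Among *Bmal1* IEC-/- mice they were 256 for *Igkv12-89* (SV470), 607 for *Igkv4-91*, 23.1 for *Myo18b*, 1.01 for *Tff2* and 32.2 for *Timeless* (all SV445), 306 for *Npas2* and 19601 for *Pigr* (both SV471), and 253 for *Smim24* (SV444). For *Igkv4-91* the other 3 *Bmal1* IEC-/- mice had 6.14 to 29.0 reads, and for *Igkv12-89* 0 to 1.01.

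For 5 genes the genotype difference at CT21 differed from the mean difference at the other times by an adjusted p under 0.05, by -1.60 (*Arntl*), -1.43 (*Nfil3*), -1.01 (*Cldn8*), -0.832 (*Cry1*) and -0.878 (*Ypel2*) on the log2 scale. For 20 genes it differed from that at CT9. The CT21 minus the CT9 value was -2.93 for *Arntl*, -2.83 for *Nfil3*, -2.16 for *Cldn8*, -1.39 for *Cry1*, -1.24 for *Npas2*, -1.18 for *Ier5*, -1.73 for *E2f2*, -1.25 for *Ypel2*, -0.775 for *Arl4a*, -1.01 for *Ffar2*, -0.671 for *Cdcp1*, -0.411 for *Prnp*, -0.708 for *Nol4l* and -0.503 for *Esrp2*. It was 0.98 for *Tns4*, 1.08 for *Tef*, 0.633 for *Anxa7*, 0.694 for *Eps8l3*, 0.742 for *Slc20a1* and 0.632 for *Nhlrc2*. Without 1 CT21 mouse, calls were lost for *Esrp2* (6 of 8 fits), *Nhlrc2* and *Nol4l* (5 each), *Prnp* (3), *Cdcp1* (2), *Arl4a* and *Ffar2* (1 each).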

How the results depend on the processing

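DESeq2's size factors, DESeq2's own test, all 48 mice and the 8 CT21 mice alone gave 39, 48, 34 and 30 calls at CT21, within 1.5 times of 39. Without a filter on low counts there were 200 calls (83 higher, 117 lower), 109 genes differing from the other times, 151 differing from CT9 and 52 list members called against 17. Of the 162 added calls, 156 were also tested with the filter, and in 122 of those the genotypes overlapped. The cause was not tested. A mean of at least 50 counts left 24 calls (11 higher, 13 lower), since 15 called genes were then not tested, and none was lost. A test against a fold of 1.5 (glmTreat) left 9. DESeq2 found 13 genes differing from the other times against 5, and gave no adjusted p for *Tff2*, *Myrfl* and *Igkv12-89*. With all 48 mice the calls of *Gtf2f2*, *Igkv12-89*, *Pappa2*, *Retnlb* (adjusted p = 0.111) and *Zbtb40* were lost.

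Without 1 CT21 mouse, 31 to 51 genes were called, and 12 (without control SV441 or SV433) to 25 higher. Of the 39 calls, 21 held in all 8 such fits and in every other fit of the same thresholds that tested them, among them *Arntl*, *Npas2*, *Cry1*, *Nr1d2*, *Cldn8*, *Ggh*, *Sis*, *Ces1d*, *Cyp4b1* and *Thbs4*. Log2 fold changes that changed sign, none of them called, ran from -0.0914 to 0.19 for *Clock*, -0.12 to 0.26 for *Per2*, -0.0839 to 0.19 for *Cry2*, -0.26 to 0.37 for *Ciart*, -0.15 to 0.0562 for *Dbp*, -0.12 to 0.13 for *Nfil3*, -0.40 to 0.0877 for *Klf10*, -0.10 to 0.10 for *Leo1*, -0.0269 to 0.0334 for *Anxa7*, -0.22 to 0.00082 for *Tns4*, -0.0949 to 0.57 for *Hc*, -0.16 to 0.22 for *Cxcr4* (-0.0023 without a filter), -0.17 to 0.13 for *Casp4* and -0.13 to 0.00036 for *Pdk1*. No paired analysis was possible because each mouse has its own number and no number is shared between genotypes.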

Other observations

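Several metabolic and positional genes had groups that did not overlap at CT21 without passing the test. The trait was common, since 682 of all genes tested (4.53%) had groups that did not overlap and only 52 of these passed. *Slc51a*, a subunit of the basolateral bile acid exporter, had 354 to 419 normalised reads in control and 458 to 732 in *Bmal1* IEC-/- mice (0.56 ± 0.14 SE, edgeR adjusted p = 0.0505). *Vegfa*, an angiogenic factor, was at 483 to 608 in control and 363 to 457 in *Bmal1* IEC-/- mice (-0.38 ± 0.10, adjusted p = 0.0665). *Pgk1*, a glycolytic enzyme, was at 1238 to 1464 in control and 933 to 1174 in *Bmal1* IEC-/- mice (-0.31 ± 0.08, adjusted p = 0.0745). *Hoxa5*, a homeobox gene of body position, was at 20.1 to 36.3 in control and 11.1 to 19.6 in *Bmal1* IEC-/- mice (-0.96 ± 0.25, adjusted p = 0.0863). The wider lists of proximal and distal colon markers had medians of -0.06 and -0.15, with no member that passed. Fat synthesis genes lay below 0 in 14 of 16 cases (median -0.14) and adipose markers, which some of these mice carried at high levels, in 10 of 10.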
